A study of Homo sapiens with 12 samples.

Results

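Membrane trafficking genes of the Rab, Arf, Arl, Vps, sorting nexin, syntaxin, VAMP, SEC, COP and LAMP families were examined in HEK293 cells after transfection of a miR-1825 mimic. The members are the genes whose symbol in the array's platform annotation starts with one of these family names, followed by a digit or, for COP, by a coat subunit letter, and holds no hyphen. For each gene the row with the highest mean over the 12 arrays was used. The rule found 136 genes on 143 rows, out of 14884 named genes on 16098 named rows and 53617 rows in all. Of the 136, 132 were protein-coding, 3 were transcribed pseudogenes (SNX29P1, SNX29P2 and SEC14L1P1) and 1, COPG2IT1, was a long non-coding RNA.

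The family names describe the members unevenly. Only 1 member, RAB6D, is a Rab GTPase by name, and the 9 other genes in which a Rab name marks a partner protein are effectors and regulators: RAB3GAP1, RAB3GAP2, RAB3IL1, RAB3IP and RAB11FIP1 to RAB11FIP5. RAB5IF encodes a factor of the endoplasmic reticulum (ER) membrane rather than a GTPase. The COP letters matched only COPG2IT1, so no coatomer subunit is among the members, and VPS72 encodes a subunit of chromatin-remodelling complexes in spite of its name. The largest sets were 26 sorting nexins, 14 syntaxins, 9 ESCRT subunits, those 9 Rab effectors and regulators, 8 Arl GTPases, 7 VAMPs and 7 genes of the ER translocon and signal peptidase. Other Rab GTPases and coatomer subunits were not analysed here.

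Human Gene 2.0 ST arrays measured expression in HEK293, a human line made by transforming embryonic kidney cells with adenovirus DNA. The mimic-1825 group (n = 6) received a synthetic miR-1825 mimic and the control group (n = 6) received AllStars Negative Control siRNA, a nontargeting duplex. Both RNAs were given at 5 nM with the same lipid reagent, and total RNA was taken 24 h later. Both groups were therefore transfected, no untransfected cells were included, and no label says whether the replicates were separate cultures, so that p-values measure only how far these samples scatter, and that scatter may be technical.

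A microRNA guides Argonaute to partly complementary sites in mRNAs, mainly through its seed (bases 2 to 8), and the bound mRNAs are usually repressed and degraded. The mimic's mature sequence and the precursor hairpin are shown because the seed is what a target site would have to match. The hairpin lies at chr20:32237795-32237847 on the plus strand (GRCh38.p14, RefSeq), with the mature part at chr20:32237830-32237847. Capitals mark the seed in the first sequence and the mature microRNA in the second.
hsa-miR-1825: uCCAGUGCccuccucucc
MIR1825 hairpin: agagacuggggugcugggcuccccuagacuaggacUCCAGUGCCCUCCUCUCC
Among 2370 mature microRNA names in the RefSeq table, no other name shared bases 2 to 8, and hsa-miR-199a-5p alone shared bases 2 to 7. MicroRNAs missing from that table were not searched, so others may share these bases. Sites in the members' transcripts were not analysed here.

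Cargo moves between compartments in vesicles and tubules. COPII coats bud from the ER and COPI coats return from the Golgi, Arf and Arl GTPases recruit coats and tethers, and Rab GTPases mark each compartment and bind its effectors. Endosomes sort cargo through sorting nexins, retromer and the ESCRT machinery, tethers such as HOPS and GARP catch incoming carriers, and SNAREs (syntaxins, VAMPs and SEC22 proteins) fuse the membranes. LAMPs cover the membrane of the lysosome, where the pathway ends. HEK293 cells use this machinery as all cultured cells do.

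Deposited values, taken to be on a log2 scale, ran from 1.62 to 14.4, with array medians between 4.44 and 4.51. Pearson correlations over all rows were 0.990 to 0.994 within groups and 0.988 to 0.993 between groups, and no 2 arrays were identical. The number of arrays limits the precision: the median standard error of a member's log2 difference was 0.056. Of 6 marker genes fixed for HEK293, 2 were named here, VIM and PAX2, with mean log2 values of 8.05 and 5.60. The 2 named leukocyte markers, CD14 and LYZ, had means of 3.86 and 3.02, below the median of all row means (4.48), and of the 2 fibroblast markers DCN had 2.67 and LUM 5.71. The summed log2 value of the 4 named markers of epithelial cancer lines was 21.93 to 23.02 on mimic-1825 arrays and 22.62 to 23.24 on control arrays, led by EPCAM at a mean of 7.95. Their part in the results was not tested.

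No member passed an adjusted p of 0.05 in the limma test over all rows (0 of 136), where 0.0112% of all rows passed. At an unadjusted p under 0.05 there were 12 members higher and 5 lower after the mimic, or 8.82% and 3.68% of the 136. The background at that threshold was 5.36% of all rows higher and 5.40% lower, and among the named genes alone 6.69% higher and 4.19% lower. Members were brighter than most rows. Among named genes at or above the median level those shares were 8.36% and 3.77%, and in the brightest 25% they were 11.0% and 3.02%, where 12 and 1 of 97 members stood. The members' shares thus lay near those of named genes of like signal. Means were higher after the mimic for 76 members and lower for 60, with a median log2 difference of 0.011, beside 50.1% of named genes higher and a median of 0.00024. The median changed sign to -0.010 after quantile normalization of the arrays. Differences were small: 3 of 136 reached 0.2 on the log2 scale in either direction, and 27 reached 0.1.

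The difference varied with signal level in the members and in all named genes alike. In the brightest 25% of rows, with a mean log2 value of at least 6.29, 97 members had a median difference of 0.017 and the 6432 named genes had 0.018. In the 25 members between the median and that level the median difference was -0.025, beside -0.0083 in the named genes there. Below the median of all rows it was -0.053 in 14 members and -0.026 in the named genes. Array by array, the median deviation of the 97 bright members from their own means was -0.014 to 0.034 on mimic-1825 arrays and -0.042 to 0.0032 on control arrays. That of all bright named genes was -0.010 to 0.034 on mimic-1825 arrays and -0.049 to 0.012 on control arrays. Control replicate 6 was the lowest in both, and mimic replicate 3 the highest.

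**Figure D1:**
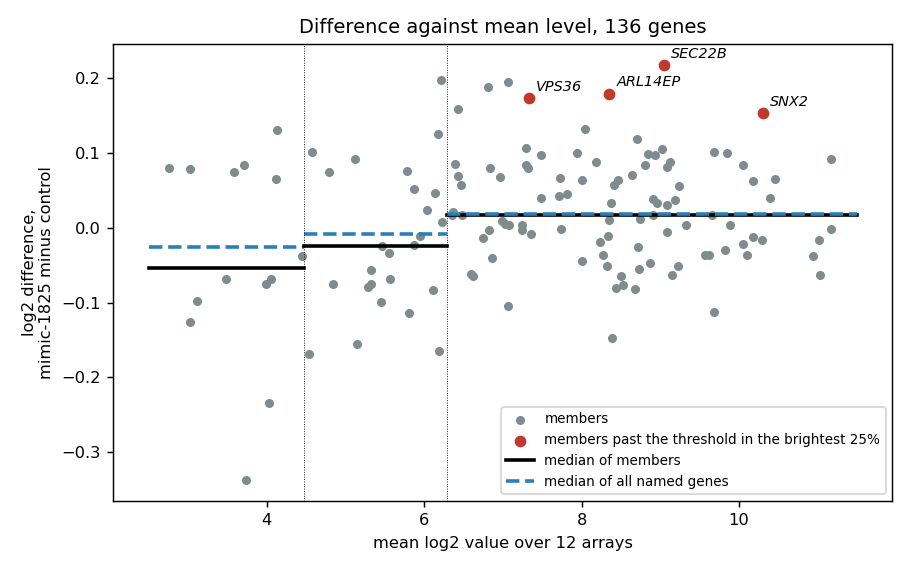
Each point is 1 of the 136 genes, with its mean log2 value over the 12 arrays on the x axis and its log2 difference, mimic-1825 minus control, on the y axis. Horizontal lines are medians of the members and of all named genes within 3 ranges split at 4.48 and 6.29 (dotted lines), and they nearly coincide, at 0.017 and 0.018, in the brightest range.

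When limma was run on the brightest 25% of rows alone, 4 of the 97 members tested passed an adjusted p of 0.05 (4.12%), where 1.81% of the 13405 rows passed. All 4 were higher after the mimic: SEC22B, ARL14EP, SNX2 and VPS36. They have roles at different steps, namely ER to Golgi fusion, an Arl effector, endosomal sorting tubules and the ESCRT machinery. The higher rows alone were 1.42% of that background. At an unadjusted p under 0.05 in that fit 20 members were higher and 4 lower, or 20.6% and 4.12%, where 15.2% and 6.20% of rows were. The remaining 39 members were too dim for that fit. The count moved with single arrays, and so did the share of all rows that passed. It was 0 without mimic replicate 1, 2, 3 or 6 and without control replicate 2 or 4, 2 without control replicate 3 or 6, and 3 to 5 without the other arrays. Where it was 0, 0.172% to 0.351% of the 13405 rows passed, and in the other fits 0.761% to 1.95%. It was 3 after quantile normalization, where 1.78% of rows passed, and 0 with the replicate number as a block, where 0.0671% did. In the same 12 fits the adjusted p of these genes ran from 0.0214 to 0.0801. Over all rows with a trend and robust prior, SNX2 alone passed (limma adjusted p = 0.0478), where 0.0727% of rows did, and at an unadjusted p under 0.05 that fit had 6.01% of rows higher and 5.20% lower. With rows below the median left out 0 members passed, where 0.0485% of rows did, and unadjusted 9.16% of rows were higher and 5.51% lower.

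SEC22B, an R-SNARE of vesicles between the ER and the Golgi, had a lowest, median and highest log2 value of 9.08, 9.14 and 9.23 on mimic-1825 arrays, against 8.82, 8.92 and 9.03 on control arrays. All 6 mimic-1825 arrays lay above all 6 controls. The means were 9.15 ± 0.05 on mimic-1825 arrays and 8.93 ± 0.08 on control arrays (SD, n = 6 each), a 1.16-fold difference. The log2 difference was 0.22 with a 95% interval from 0.12 to 0.32 (limma adjusted p = 0.212 over all rows and 0.0285 in the brightest 25%). RefSeq lists 3 pseudogene copies of SEC22B (SEC22B2P, SEC22B3P and SEC22B4P) whose transcripts may bind the same probes, so the gene assignment is uncertain.

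ARL14EP encodes a protein that binds the small GTPase ARL14. It had 8.39, 8.41 and 8.54 (lowest, median, highest log2 value) on mimic-1825 arrays, against 8.20, 8.25 and 8.36 on control arrays. The groups did not overlap, though control replicate 1, at 8.36, lay apart from the other controls. The log2 difference was 0.18 with an interval from 0.08 to 0.27 (1.13-fold, limma adjusted p = 0.229 over all rows and 0.0328 in the brightest 25%). ARL14 itself had a mean of 3.03, in the dim range, and a log2 difference of -0.13.

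SNX2, a sorting nexin that bends endosomal membrane into tubules through its BAR domain, had 10.34, 10.38 and 10.43 on mimic-1825 arrays, against 10.16, 10.25 and 10.26 on control arrays (log2 value). Again no mimic-1825 array fell within the control range. Its log2 difference was 0.15 with an interval from 0.07 to 0.24 (1.11-fold, limma adjusted p = 0.240 over all rows and 0.0313 in the brightest 25%). VPS36, the ESCRT-II subunit that binds ubiquitin and phosphoinositides, had 7.35, 7.40 and 7.51 on mimic-1825 arrays, against 7.19, 7.25 and 7.31 on control arrays. The log2 difference was 0.17 with an interval from 0.08 to 0.27 (1.13-fold, limma adjusted p = 0.240 over all rows and 0.0381 in the brightest 25%). RefSeq lists 2 pseudogenes of SNX2 and 1 of ARL14EP.

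Including these 4, the 6 mimic-1825 arrays lay above the 6 controls for 5 members (3.68%, where 0.759% of all rows, 1.34% of named genes and 2.52% of the brightest 25% of rows did) and below them for 1 (0.735%, where 0.414% of all rows, 0.403% of named genes and 0.776% of the brightest 25% did). The fifth higher member was VPS35, the scaffold subunit of retromer, at 11.18, 11.21 and 11.30 on mimic-1825 arrays, against 11.08, 11.13 and 11.17 on control arrays. The lower one was STX11, a syntaxin of immune granule release, at 4.77, 5.14 and 5.18 on mimic-1825 arrays, against 5.19, 5.23 and 5.25 on control arrays. The highest mimic-1825 array and the lowest control nearly touched for STX11, and mimic replicate 2 was the array at 4.77. STX11 was not in the brightest 25% of rows, where all 5 higher members were. The percentages of members given here are of all 136, not of the 97 bright members. Neither VPS35 (log2 difference 0.09, limma adjusted p = 0.432) nor STX11 (-0.16, limma adjusted p = 0.429) passed the test over all rows.

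**Figure D2:**
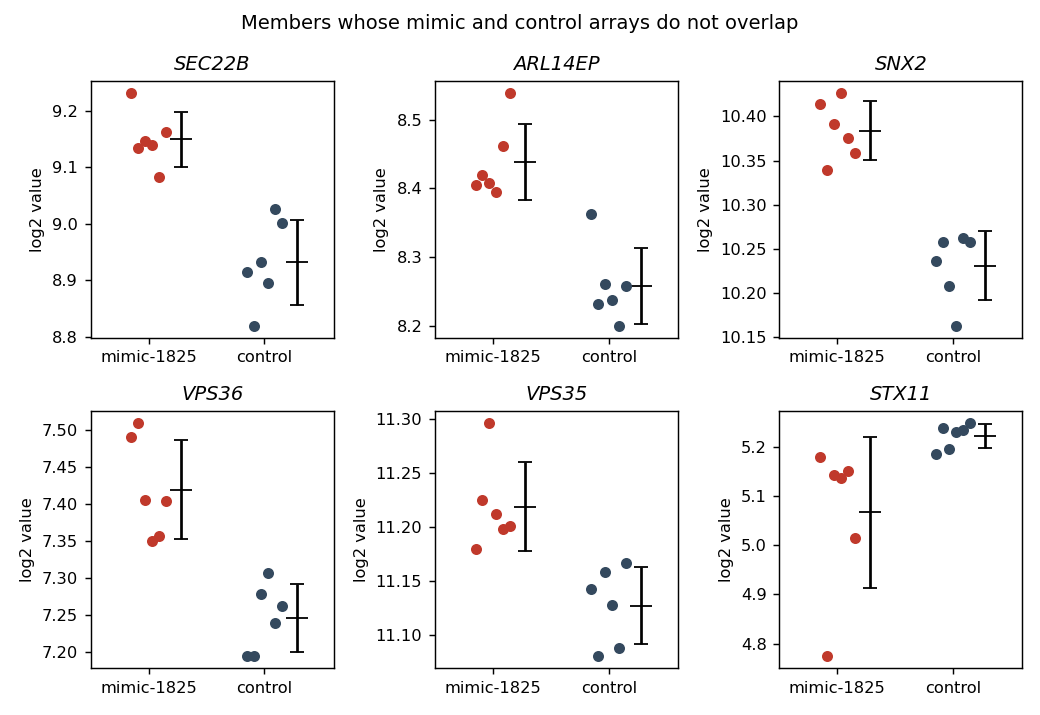
Log2 values of the 6 members whose groups do not overlap, with mimic-1825 arrays left of control arrays in each panel. Points are the 6 arrays of a group in the order of their replicate numbers, bars are mean ± SD, and the y axes do not start at 0. SEC22B has the widest separation of means (9.15 and 8.93), and STX11 is the 1 gene with lower mimic-1825 arrays.

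Retromer, a heterotrimer of VPS35, VPS29 and either VPS26A or VPS26B, retrieves receptors from endosomes. VPS29 had 6.76, 6.87 and 7.06 on mimic-1825 arrays, against 6.56, 6.70 and 6.89 on control arrays (lowest, median and highest log2 value). Only 2 mimic-1825 arrays lay above every control, although all 6 lay above the control mean (log2 difference 0.19, interval 0.04 to 0.34, limma adjusted p = 0.364). Of the VPS26 paralogues, VPS26A had a log2 difference of 0.0040 and VPS26B of -0.06, each with an interval that spans 0. In retriever, a related complex that shares VPS29, VPS35L had -0.08 (interval -0.16 to 0.01) and VPS26C had -0.08 (-0.22 to 0.06).

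SNX1, SNX2, SNX5 and SNX6 pair with each other on the tubules that leave sorting endosomes. SNX5 had 8.66, 8.76 and 8.84 on mimic-1825 arrays, against 8.55, 8.65 and 8.72 on control arrays (log2 value), and 4 of 6 mimic-1825 arrays lay above every control. Its log2 difference was 0.12 (interval 0.01 to 0.23, limma adjusted p = 0.418), and SNX6 had 0.08 (interval -0.01 to 0.18). SNX1, the paralogue of SNX2, had -0.0024 with an interval from -0.10 to 0.09. The retromer adaptors SNX3 and SNX27 had 0.08 and -0.02, each with an interval that spans 0.

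Of all 26 sorting nexins, 14 had a higher mean after the mimic and 12 a lower one (median log2 difference 0.011), and 0 passed over all rows. SNX2, SNX5 and SNX4, which acts in recycling and autophagy, were higher at an unadjusted p under 0.05, and SNX30 and SNX20 were lower. SNX30 had 8.21, 8.29 and 8.45 on mimic-1825 arrays, against 8.38, 8.46 and 8.53 on control arrays. The ranges overlap, with 4 of 6 mimic-1825 arrays below every control (log2 difference -0.15, interval -0.26 to -0.04, limma adjusted p = 0.326 over all rows and 0.0823 in the brightest 25%). SNX30 also passed in the brightest 25% when mimic replicate 5 was left out. SNX20, at a mean of 4.03, lay in the dim range. SNX17, an adaptor for recycling of lipoprotein receptors, had -0.08 with an interval from -0.19 to 0.02.

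**Figure D3:**
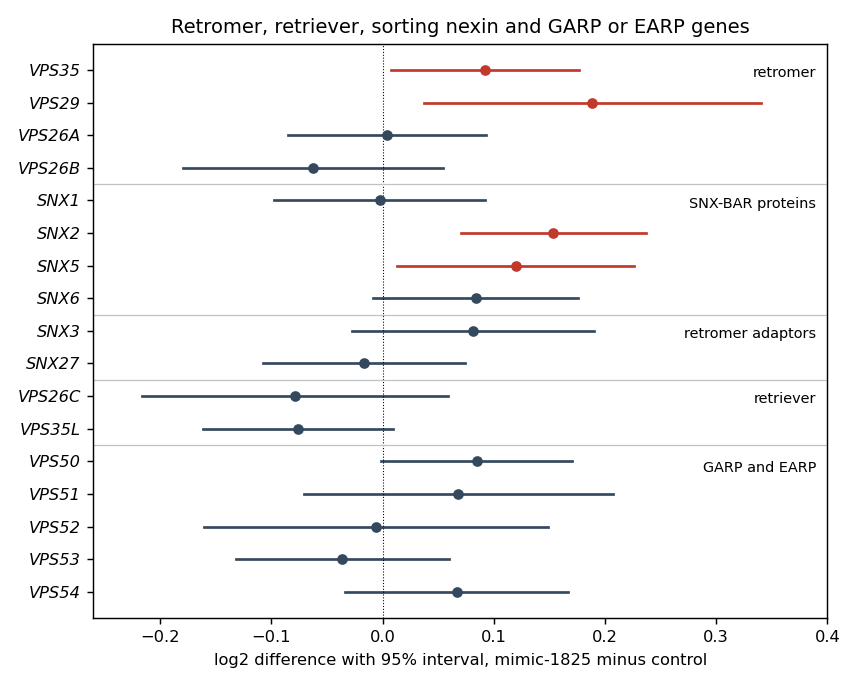
Log2 difference, mimic-1825 minus control, of 17 genes (points) with 95% intervals from limma (lines), grouped by complex. Red marks an unadjusted p under 0.05. VPS35, VPS29, SNX2 and SNX5 lie to the right of 0, while VPS26A and SNX1 lie at 0 and the 2 retriever subunits to its left, with intervals that reach 0.

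ESCRT subunits cut membrane buds away from the cytosol and sort ubiquitinated cargo. Of 9 members, 5 had higher and 4 lower means (median log2 difference 0.0076), and VPS36 alone had an unadjusted p under 0.05. Its partner in ESCRT-II, VPS25, had -0.06. The ATPases that take the filaments apart had differences of opposite sign with intervals that span 0, VPS4B at 0.08 (-0.02 to 0.18) and VPS4A at -0.05 (-0.17 to 0.08).

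Tethers had no member past an unadjusted p of 0.05. Among the 5 GARP and EARP subunits, which tether carriers from endosomes, VPS50, VPS54 and VPS51 had log2 differences of 0.08, 0.07 and 0.07, and VPS53 and VPS52 had -0.04 and -0.0058. VPS50, the subunit that marks EARP, had 7.28, 7.34 and 7.41 on mimic-1825 arrays, against 7.21, 7.25 and 7.30 on control arrays, with 5 of 6 mimic-1825 arrays above every control (limma adjusted p = 0.473). Of the 6 subunits of HOPS and CORVET, which tether membranes at late and early endosomes, 4 had higher and 2 lower means, from -0.05 for VPS33A to 0.07 for VPS41. The 4 VPS13 proteins, bridges for lipid transfer between membranes, ran from -0.06 for VPS13D to 0.06 for VPS13A.

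In the ER, SEC61A2, a second alpha subunit of the protein translocation channel, had 6.34, 6.51 and 6.66 on mimic-1825 arrays, against 6.22, 6.34 and 6.47 on control arrays. Ranges overlapped (log2 difference 0.16, interval 0.03 to 0.29, limma adjusted p = 0.374). Of the other channel subunits, SEC61A1 had -0.04 and SEC61B had -0.11, each with an interval that spans 0. SEC61B had 9.45, 9.66 and 9.73 on mimic-1825 arrays, against 9.68, 9.73 and 9.85 on control arrays, so that 3 of 6 mimic-1825 arrays lay below every control. SEC62 and SEC63, which assist translocation after translation, had 0.10 and 0.06, also each with an interval that spans 0. The 6 genes of the COPII coat and its partners had a median log2 difference of -0.03, from -0.05 for SEC23A to 0.10 for SEC31B, and 0 had an unadjusted p under 0.05. SEC22C, the relative of SEC22B, had 0.04 with an interval from -0.07 to 0.15.

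Among GTPases, ARL6, which recruits the BBSome coat to cilia, had 6.99, 7.20 and 7.30 on mimic-1825 arrays, against 6.85, 6.97 and 7.07 on control arrays. All 6 mimic-1825 arrays lay above the control mean and 4 above every control (log2 difference 0.20, interval 0.06 to 0.33, limma adjusted p = 0.306 over all rows and 0.0859 in the brightest 25%). Of the 8 Arl GTPases 6 had higher means. Of the 5 Arf GTPases, 2 had higher and 3 lower means, and ARF1 and ARF6, which act at the Golgi and the plasma membrane, had -0.02 (interval -0.10 to 0.07) and -0.01 (-0.10 to 0.08). ARF5 had 5.97, 6.12 and 6.18 on mimic-1825 arrays, against 5.98, 6.29 and 6.53 on control arrays (log2 difference -0.16, interval -0.34 to 0.01). RAB6D, in the dim range at a mean of 2.76, had 0.08 with an interval from -0.12 to 0.28.

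The median log2 difference of 9 Rab effectors and regulators was 0.04 (7 higher means and 2 lower), with 0 at an unadjusted p under 0.05. RAB11FIP2 and RAB11FIP3, which link recycling endosomes to motor proteins, had 0.09 (-0.01 to 0.18) and 0.20 (-0.02 to 0.41). RAB3GAP1 and RAB3GAP2, which form a single enzyme acting on RAB18 and RAB3 proteins, had 0.02 and 0.04.

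Syntaxins numbered 14, of which 9 had higher and 5 lower means (median log2 difference 0.04). STX11 was the 1 with an unadjusted p under 0.05. The endosomal syntaxins STX7, STX12 and STX6 had 0.10, 0.11 and 0.13, while STX8, a partner of STX7, had -0.06 and STX10 had -0.06. The plasma membrane syntaxins STX4 and STX3 had -0.08 and -0.10, each with an interval that spans 0. VAMP7, an R-SNARE of lysosomes, had 9.81, 9.90 and 9.99 on mimic-1825 arrays, against 9.74, 9.80 and 9.89 on control arrays, a log2 difference of 0.10 (interval 0.0015 to 0.20, limma adjusted p = 0.458). VAMP3 and VAMP8 had -0.02 and 0.0044.

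LAMP2, which also serves chaperone-mediated autophagy, had 9.03, 9.08 and 9.12 on mimic-1825 arrays, against 8.88, 8.97 and 9.03 on control arrays. Of 6 mimic-1825 arrays 4 lay above every control (log2 difference 0.11, interval 0.01 to 0.20, limma adjusted p = 0.409). Its relative LAMP1 had 9.77, 9.81 and 9.82 on mimic-1825 arrays, against 9.81, 9.83 and 9.86 on control arrays. That is a log2 difference of -0.03 with an interval from -0.11 to 0.05, which overlaps the interval of LAMP2. The difference between LAMP2 and LAMP1 itself was not tested.

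**Figure D4:**
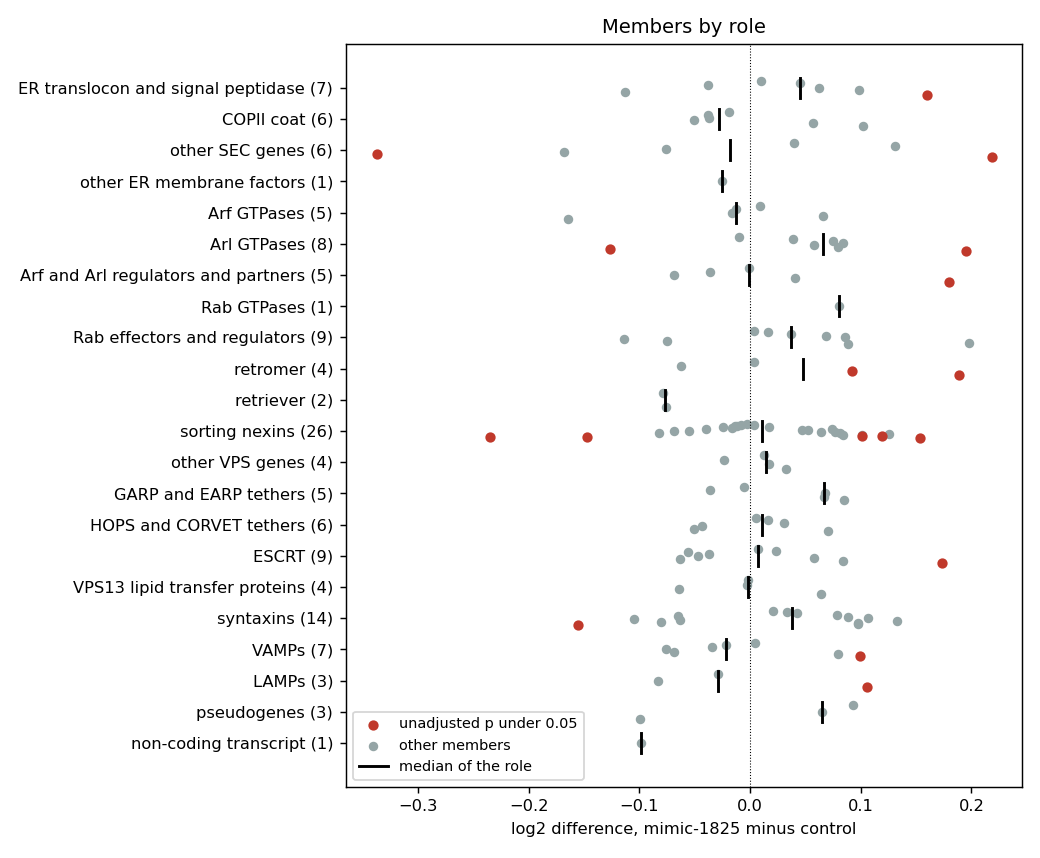
Log2 difference, mimic-1825 minus control, of the 136 members (points), by role, with the number of members in brackets and a vertical bar at the median. Red points had an unadjusted p under 0.05. The red points, 12 to the right of 0 and 5 to the left, are spread over many roles.

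Of the 5 members that were lower at an unadjusted p under 0.05, 3 lay below the median of all row means: SNX20, SEC14L3 and ARL14. They were chosen here after their values were seen. SEC14L6, a relative of SEC14L3 just above that median, had 4.36, 4.45 and 4.55 on mimic-1825 arrays, against 4.36, 4.68 and 4.84 on control arrays (log2 difference -0.17, interval -0.35 to 0.01, limma adjusted p = 0.498). SEC14L3, a lipid-binding protein gene, had 3.29, 3.54 and 3.90 on mimic-1825 arrays, against 3.69, 3.83 and 4.44 on control arrays, the widest log2 difference of the 136 (-0.34, interval -0.62 to -0.06). Background levels are not known for these rows, so no fold is given.

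Other genes of the pathway came from 7 lists of partner proteins with 222 genes, of which 138 were named on the array. Means were higher for 84 of them and lower for 54 (60.9% higher, median log2 difference 0.017). Among named genes in the brightest 25%, 59.9% were higher and the median was 0.018. With limma over all rows 0 passed, and 23 were higher and 1 was lower at an unadjusted p under 0.05. Those 23 and 1 are 16.7% and 0.725% of the 138, beside 5.36% and 5.40% of all rows and, among named genes in the brightest 25%, 11.0% and 3.02%. Of these, 119 lay in the brightest 25% of rows, where 4 passed an adjusted p of 0.05 (3.36%, where 1.81% of rows did), all higher after the mimic. They were EXOC6, a subunit of the exocyst tether at the plasma membrane, SCFD1, which chaperones the ER to Golgi SNAREs, STXBP3, which binds the plasma membrane syntaxins, and CHMP2B, an ESCRT-III subunit. EXOC6 had 8.66, 8.73 and 8.77 on mimic-1825 arrays, against 8.40, 8.53 and 8.60 on control arrays, without overlap (1.15-fold, limma adjusted p = 0.224 over all rows and 0.0324 in the brightest 25%). SCFD1 had 7.78, 7.82 and 7.87 on mimic-1825 arrays, against 7.57, 7.65 and 7.76 on control arrays, also without overlap (1.12-fold, limma adjusted p = 0.241 over all rows and 0.0380 in the brightest 25%). For comparison, all 6 mimic-1825 arrays lay above all 6 controls for 1.34% of named genes and 2.52% of the brightest 25% of rows. STXBP3 and CHMP2B were 1.15-fold and 1.13-fold higher, each with 5 of 6 mimic-1825 arrays above every control. The count of 4 was 0 without mimic replicate 1, 2, 3 or 6 or control replicate 4, and 0 with the replicate number as a block. It was 1 without control replicate 2 or 6, 2 without control replicate 1, and 3 to 6 without the other arrays. Where a single array was left out and the count was 0, 0.179% to 0.351% of the bright rows passed. With the block 0.0671% did. Where the count was 1, 0.172% and 0.858% passed, where it was 2, 0.761%, and where it was 3 to 6, 1.08% to 1.95%.

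Among 39 named genes of tethering complexes, 24 had a higher mean and 15 a lower one (median log2 difference 0.04). At an unadjusted p under 0.05, 10 were higher (25.6%) and 0 lower. The background at that threshold was the 11.0% higher and 3.02% lower of bright named genes, and 8.36% and 3.77% of named genes at or above the median level. TRAPPC13, a subunit of the TRAPP III tether, had 7.44, 7.61 and 7.67 on mimic-1825 arrays, against 7.28, 7.37 and 7.49 on control arrays (log2 difference 0.21, limma adjusted p = 0.259). Against the same background, 4 of 16 other SNAREs and fusion factors were higher (25%) and 0 lower. Of 22 COPI and COPII partners 3 were higher and 1 lower, of 24 Rab regulators 3 were higher, of 18 ESCRT partners 2 were higher, and of 17 Arf regulators 0 in either direction. In the COPI and COPII list ERGIC2 and BCAP29 had 0.11 and 0.12, and among Rab regulators USP6NL and CCZ1 had 0.20 and 0.15. Only 2 of 34 clathrin and adaptor genes were named here, PICALM at 0.13 and EPN1 at -0.04. In the list of Arf regulators GIT1 had -0.08 and ARFGEF1 0.10, and in the ESCRT list STAM had 0.10.

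Of the 136 members 7 had a second row, and these rows did not always give the same difference. For VAMP7 and SEC62 they were alike, at 0.10 and 0.08 for VAMP7 and 0.10 and 0.09 for SEC62. For ARF3 and ARL2BP the dimmer row, which was not used, had 0.18 and 0.19, against 0.0089 and 0.04 in the brighter row. For VPS37B, VPS51 and VPS52 the rows had opposite signs, all between -0.04 and 0.07.

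Promoters were compared because the rule for members used no sequence. RefSeq windows of 300 bases, 250 before and 50 after each gene's start (GRCh38.p14), matched 107 of the 136 members. Both strands were searched for exact letters. The E-box CACGTG, bound by TFEB and other basic helix-loop-helix factors, was in 14 of 107 (13.1%), against 9.02% of named genes and 7.43% of all promoters. CCAAT was in 29.9% of the members and 35.7% of all promoters, and TATAAA was in 2.80% of the members and 8.49% of named genes. The 14 members with CACGTG had a median log2 difference of 0.04, with 12 of 14 higher, and the 93 without it had 0.0089, with 49 higher. No member with CACGTG had an unadjusted p under 0.05 in the limma test over all rows. Of all named genes 50.1% were higher, and of those in the brightest 25% 59.9%. The share among all named genes with CACGTG was not computed. These are descriptions, and no site is implied.

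The promoters of SEC22B and ARL14EP, 2 of the 4 members past the threshold in the brightest rows, and that of LAMP1, which holds CACGTG at 6 positions, are printed to show how differently these windows are built. Capitals mark CCAAT on either strand in SEC22B and ARL14EP and CACGTG in LAMP1. They lie at chr1:120176471-120176770 on the minus strand for SEC22B, chr11:30322854-30323153 on the plus strand for ARL14EP and chr13:113296989-113297288 on the plus strand for LAMP1.
SEC22B: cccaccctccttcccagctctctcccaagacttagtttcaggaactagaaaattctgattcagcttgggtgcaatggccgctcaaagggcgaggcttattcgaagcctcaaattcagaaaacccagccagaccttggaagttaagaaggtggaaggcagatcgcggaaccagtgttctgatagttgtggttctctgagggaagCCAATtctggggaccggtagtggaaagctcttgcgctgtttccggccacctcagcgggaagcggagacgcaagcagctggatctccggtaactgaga
ARL14EP: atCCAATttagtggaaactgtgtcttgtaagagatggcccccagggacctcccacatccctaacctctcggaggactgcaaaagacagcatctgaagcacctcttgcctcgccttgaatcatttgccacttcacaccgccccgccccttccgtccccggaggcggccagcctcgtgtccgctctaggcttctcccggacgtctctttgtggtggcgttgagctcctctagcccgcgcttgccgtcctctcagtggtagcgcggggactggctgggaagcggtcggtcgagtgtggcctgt
LAMP1: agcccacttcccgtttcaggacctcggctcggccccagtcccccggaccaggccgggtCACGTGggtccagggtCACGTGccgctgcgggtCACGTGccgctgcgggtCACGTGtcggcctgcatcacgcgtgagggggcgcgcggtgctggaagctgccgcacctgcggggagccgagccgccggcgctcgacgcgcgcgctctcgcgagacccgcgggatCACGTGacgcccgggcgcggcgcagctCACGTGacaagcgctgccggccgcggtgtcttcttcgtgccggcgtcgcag
The windows of SNX2 and VPS36 held none of these letters.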

How the data were processed

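The authors deposited 1 log2 value per transcript cluster (row) and array. The submitters' processing notes name Affymetrix Expression Console, and the sources used here give neither version nor settings. That the values are log2 was read from their range. They were used as deposited. Rows were named through the platform annotation, and the 136 members' symbols all matched RefSeq (GRCh38.p14); coordinates are those of RefSeq.

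Groups were compared with limma 3.58.1 under R 4.3.3 (functions lmFit and eBayes, no trend), mimic-1825 minus control, two-sided, with Benjamini-Hochberg adjustment over all 53617 rows; it was tested on simulated data. Intervals are 95%. The members and lists were chosen with earlier results of these data known, so no list was tested. Genes named by rule were up to 10 higher and 10 lower protein-coding members by p whose mean reached the median of rows. The rule also took the top member of each role, 2 of each partner list, and any member past the threshold. Other genes were added for comparison after their values were seen, and their groups are not always given whole. Roles of 10 genes were corrected by hand. Replicate numbers 1 to 6 recur in both groups, and deviations of same-numbered arrays correlated between -0.113 and 0.0841. Same-numbered arrays were not treated as pairs, except in the fits with a replicate block.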

Additional observations from a re-analysis of the deposited data

Results flagged for a closer look

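For the 42 genes named by rule, the highest and lowest array of each group of 6 were tested for a gap to the rest, 84 groups in all. A single group had such an array, and about 1 group in 20 would by chance. ARF5 was lowest in mimic replicate 2 at 5.97, against 6.11 to 6.18 in the other 5 mimic-1825 arrays (control arrays 5.98 to 6.53).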

How the results depend on the processing

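The count of 0 members past an adjusted p of 0.05 became 4 when limma ran on the brightest 25% of rows and 1 under a robust, trended prior. It was 0 under all other settings, including all 12 fits without single arrays (range 0 to 0). Members higher at an unadjusted p under 0.05 numbered 20 under the robust, trended prior, where 6.01% of all rows were higher. They numbered 20 in the brightest 25%, where 15.2% of rows were higher. With the replicate block they numbered 7, and without single arrays 9 to 13. Lower members numbered 3 among rows at or above the median, where 5.51% of rows were lower. After quantile normalization they numbered 9, and without single arrays 3 to 8. Shares of all rows at this threshold are not given for the replicate block, quantile normalization or single-array fits. Those counts therefore have no background beside them. The members' median log2 difference was -0.010 after quantile normalization and 0.0038 to 0.021 without single arrays. Over all rows 0 partner genes passed, also without single arrays (0 to 0), and 4 did in the brightest 25%. The 4 members called in the brightest 25% became 0 with the replicate block and 3 after quantile normalization, and ran from 0 to 5 without single arrays. The 4 partner genes called there became 0 with the replicate block and 3 after quantile normalization, and ran from 0 to 6 without single arrays. The share of all bright rows that passed was 0.0671% with the block and 1.78% after quantile normalization. Without single arrays it was 0.172% to 1.95%. These fits were chosen after seeing the data. The 42 genes named by rule kept the direction of their log2 difference under every setting run. Other genes given in the text were not checked in this way. The cause of these changes was not tested. Only 1 of 6 mimic-1825 arrays correlated best with its own number. In the median deviation of all bright named genes, however, replicate 3 was highest and replicate 6 lowest in both groups. Whether the replicate numbers mark pairs or a batch is not known. Background levels are not known, which limits what the dim rows show.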
